A study of Homo sapiens with 9 samples.

Results

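Chromosome 19 of the human genome carries a large collection of C2H2 zinc finger genes, and those that lie on the centromere side of SUGP1 and along the long arm were followed here through editing of SUGP1. The genes were taken from the table of read counts by position and name: a start on chromosome 19 (GRCh38) beyond a limit set between SUGP1 and ZNF101, and a symbol of ZNF or ZFP followed by a digit, without antisense or divergent transcripts and without symbols ending in P. The rule found 207 of the 38146 genes in the table. It also names ZNF91, ZNF548, ZNF540 and ZFP30, which were selected on their measured crSUGP1 fold changes, so the crSUGP1 values of the whole family are given as a description. Calls in those comparisons only say which genes passed the thresholds of a fit over all genes, and nothing is supported with them.

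The RNA was that of U-2 OS, an established line from a human osteosarcoma, transfected with Cas9 and then with 1 of 3 guides: NTC, a non-targeting control; crXCR1, which cuts XCR1, a chemokine receptor gene of dendritic cells, and so controls for a break in the DNA; or crSUGP1, which cuts SUGP1, a gene for a splicing-associated G-patch protein. Each of 3 independent experiments gave 1 library per guide, 9 libraries in all, from pools of edited cells and not from clones. The labels describe transfection at 50 nM crRNA and 72 h of incubation for the plate screen, while RNA was taken from cells in flasks. Levels are in CPM, read counts relative to the TMM-scaled library total, and differences are log2 fold changes from edgeR. To be tested a gene had to exceed -2 on the log2 CPM scale in 1 or more libraries, and to be called it had to reach an adjusted p of 0.05 or less together with a log2 fold change of 0.5 or more in either direction.

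SUGP1 itself lies from 19276018 to 19320509, before the first of the genes described here, and fell to 7.87, 7.68 and 6.52 CPM in the crSUGP1 libraries from 28.2 to 31.6 CPM in the 6 control libraries. The libraries held 68712738 to 107952835 counts. Of 9 markers of the osteoblast lineage and mesenchyme, 6 were detected well enough to test, COL1A1, SPARC, VIM, RUNX2, ALPL and BGLAP, while COL1A2, SP7 and IBSP had means of at most 0.172 CPM. Their summed level was 4198 to 4660 CPM in NTC, 4246 to 4535 in crXCR1 and 3945 to 4187 in crSUGP1. Of the leukocyte markers CD3E had 0 counts, and the sum of the list was 2.37 to 2.63, 2.68 to 3.06 and 3.68 to 4.78 CPM. The last range was carried by LAPTM5, which rose from 2.11 ± 0.175 in NTC to 3.76 ± 0.449 CPM (SD, n = 3). The 4 epithelial markers summed to 1448 to 1622, 1468 to 1665 and 1494 to 1822 CPM, and the neuronal pair RBFOX3 and TUBB3 to 227 to 234, 227 to 250 and 173 to 206 CPM. KRT8 and KRT18, at means of 955 and 597 CPM in NTC, made up nearly all of the epithelial sum. EPCAM was at 3.26 and CDH1 at 1.29 CPM there. Within the neuronal pair RBFOX3 went up, from 15.9 in NTC to 19.2 CPM in crSUGP1, while TUBB3 went down, from 215 to 174 CPM. The part of these shifts in the results was not tested.

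A C2H2 finger is a small fold in which a pair of cysteines and a pair of histidines hold a zinc ion, and an array of fingers reads a stretch of DNA. Most genes of these clusters also encode a KRAB domain, which recruits the corepressor TRIM28 and through it the histone methyltransferase SETDB1, and many of the proteins are known to silence retrotransposons and other repeats. The genes arose by repeated duplication, lie in arrays, and in many cells the arrays themselves carry H3K9 methylation. In the coding sequences of GENCODE release 44, 205 of the 207 genes could be translated. They held a median of 13 finger matches, with a range of 0 to 36, and 155 held 10 or more. A strict KRAB pattern was found in 119, and its absence says only that those letters were not met. The name covers some unlike genes. ZFP36 encodes tristetraprolin, an RNA-binding protein with fingers of another type, and gave 0 matches, and ZNF428 gave 1. ZNF781 is annotated as a transcribed pseudogene and ZNF8-ERVK3-1 as a noncoding readthrough transcript.

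The first stretch of coding DNA with the finger spacing, and with 2 residues between the cysteines, is printed for each of the 6 called genes. The search required the cysteines and histidines, so their presence says nothing about these genes in particular. Codons at the cysteine and histidine positions of that spacing are in capitals, 5′ to 3′ on the coding strand (GRCh38).
ZNF91: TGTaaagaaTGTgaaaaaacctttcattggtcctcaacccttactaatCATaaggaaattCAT
ZNF548: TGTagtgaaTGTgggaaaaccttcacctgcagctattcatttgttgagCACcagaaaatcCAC
ZNF540: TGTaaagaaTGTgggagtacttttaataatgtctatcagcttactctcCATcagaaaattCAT
ZFP30: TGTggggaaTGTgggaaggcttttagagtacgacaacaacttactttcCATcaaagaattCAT
ZNF468: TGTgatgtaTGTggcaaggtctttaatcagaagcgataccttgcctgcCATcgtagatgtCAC
ZNF576: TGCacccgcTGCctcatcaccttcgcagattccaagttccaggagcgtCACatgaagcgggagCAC
These stretches lie at chr19:23362283-23362345 (minus strand), chr19:57398882-57398944 (plus), chr19:37611845-37611907 (plus), chr19:37636001-37636063 (minus), chr19:52841499-52841561 (minus) and chr19:43598851-43598916 (plus). Whole coding sequences held 31 matches in ZNF91, 11 in ZNF548, 17 in ZNF540, 12 in ZFP30, 10 in ZNF468 and 4 in ZNF576. The KRAB pattern was found in the first 5 and not in ZNF576.

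Most of the family was transcribed in U-2 OS cells, at low levels. Of the 207 genes, 181 passed the filter, 178 of them in all 9 libraries, and 1, ZNF730, passed through a crSUGP1 library alone. The other 26 did not pass, 8 with 0 counts and 18 with means of up to 0.186 CPM. The tested genes had a median of 8.33 CPM and a range of 0.168 to 90.4, against a median of 11.8 CPM over all 21071 genes tested. Of the 37 genes of the short arm, ZNF101 to ZNF254, 18 were not tested, and the 8 genes with 0 counts were all among them: ZNF626, ZNF43, ZNF257, ZNF676, ZNF729, ZNF723, ZNF728 and ZNF681.

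Levels between genes were compared per kb of exon. The tested genes had a median of 1.32 CPM per kb in NTC, from 0.0288 to 33.6. The highest were ZNF428, ZNF146, ZNF404, ZNF581 and ZNF787, at 33.6 ± 2.12, 21.0 ± 1.98, 16.1 ± 1.31, 15.2 ± 0.224 and 15.0 ± 1.40 CPM per kb (SD, n = 3), and the last 3 of these overlapped in their SDs. ZNF428 shares 498 exon bases on opposite strands with SRRM5, ZNF581 shares 407 with ZNF580, and ZNF404 shares 436 with a noncoding gene on its own strand, so their levels may include counts of their neighbours. Of the 5, ZNF146 alone had all crSUGP1 libraries above the controls, with a near tie between 96.4 CPM in crSUGP1 and 96.3 in NTC. It was at 84.1, 96.3 and 80.7 CPM in NTC, 93.4, 87.5 and 80.2 in crXCR1 and 96.6, 98.3 and 96.4 in crSUGP1. Its log2 fold changes were 0.16 (SE 0.08) against each control. The lowest tested were ZNF714, ZNF506 and ZNF536, at 0.0288, 0.0344 and 0.0390 CPM per kb. ZNF506 lay higher in each crSUGP1 library, at 0.453, 0.521 and 0.383 CPM, than in any control library, at 0.304 to 0.377 CPM. These values rest on only 43, 42 and 27 reads in crSUGP1 and 25 to 38 in the controls, and the closest libraries nearly tie. Its log2 fold changes were 0.47 (SE 0.18) against NTC and 0.37 (SE 0.17) against crXCR1, and it was not called.

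In all, 6 genes of the family were called in a crSUGP1 comparison, 5 higher and 1 lower. Against NTC, 4 of 181 were called, higher for ZNF91, ZNF548 and ZNF468 and lower for ZNF576, where 0.783% of all genes tested were called, 0.327% higher and 0.456% lower. Against crXCR1, ZNF540 and ZFP30 joined them and 6 were called, beside 0.774% of all genes, 0.190% higher and 0.584% lower. Called against both were 4, beside 0.560%. The comparisons share the crSUGP1 libraries, and since the genes were proposed with these contrasts known, nothing is read from the counts. With the experiment as a block, 5 were called against NTC, with ZNF540 added, and 6 against crXCR1, while the shares over all genes grew to 2.85% and 3.90%. Without NTC replicate 1 or NTC replicate 2, ZNF548 alone was called against NTC, and without crSUGP1 replicate 2, crXCR1 replicate 1 or crXCR1 replicate 2 it alone was called against crXCR1. Counted without a test, 33 of 181 genes had all 3 crSUGP1 libraries above all 6 control libraries and 2, ZNF576 and ZNF628, had all 3 below, where 6.36% and 6.69% of all genes tested did so.

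**Figure D1:**
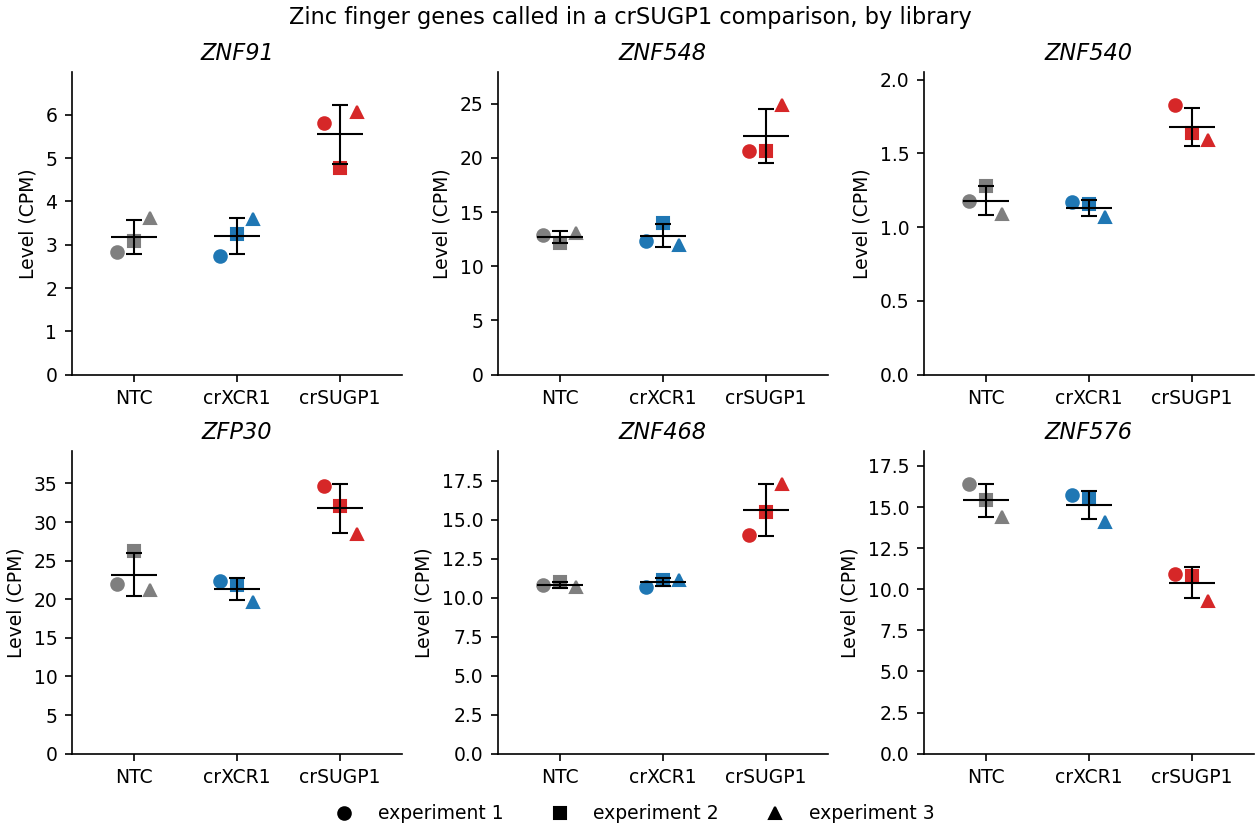
Level in CPM (vertical axes, from 0) of the 6 called genes in each library, by guide; symbols mark the 3 experiments, and the black bars give the mean and SD of 3 libraries. In each panel the 3 crSUGP1 libraries lie apart from the 6 control libraries, above them for 5 genes and below them for ZNF576.

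ZNF91 encodes a primate KRAB protein known to repress SVA retrotransposons. Its gene lies on the minus strand of the short arm at chr19:23304991-23395471. It was at 2.84, 3.09 and 3.61 CPM in NTC, 2.75, 3.26 and 3.59 in crXCR1 and 5.82, 4.77 and 6.06 in crSUGP1, so that the groups did not overlap. The log2 fold change was 0.80 (SE 0.14) against NTC, or 1.74-fold, and 0.79 (SE 0.14) against crXCR1. Within experiments it was 1.03, 0.63 and 0.75 against NTC. Of the windows of 150 bases in its exons, 1.24% recur elsewhere on chromosome 19.

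The flanking genes were scarce or differed little. Toward the tip of the short arm ZNF730, which passed the filter only through crSUGP1 replicate 3 at 0.269 CPM, was at 0.0846 to 0.210 CPM in the other 8 libraries and gives no comparison, and ZNF724 had 11 counts in all. Toward the centromere ZNF675, which encodes an inhibitor of TRAF6 signaling, was at 2.18 ± 0.131, 2.10 ± 0.215 and 2.28 ± 0.263 CPM in NTC, crXCR1 and crSUGP1, with a log2 fold change of 0.06 (SE 0.12) against NTC, and ZNF681 had 0 counts.

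ZNF548 lies on the plus strand near the end of the long arm at chr19:57389850-57402992 and encodes a KRAB protein. In NTC it was at 12.9, 12.1 and 13.1 CPM and in crXCR1 at 12.3, 14 and 12, while the crSUGP1 libraries held 20.6, 20.6 and 24.9 CPM. Each crSUGP1 library was thus well above the highest control. The log2 fold change was 0.79 (SE 0.10) against either control, 1.73-fold. It was called against each control in 16 of 18 alternative fits, the most of the 6 genes. Its flanking genes differed little: ZNF304, known for recruiting a repressor complex to the INK4-ARF locus, had log2 fold changes of 0.05 (SE 0.07) and 0.06 (SE 0.07), ZNF547 of 0.00 (SE 0.10) and -0.11 (SE 0.10), ZNF17 of 0.17 (SE 0.11) and 0.21 (SE 0.11) and ZNF749 of 0.02 (SE 0.13) and 0.04 (SE 0.13). The exons of ZNF548 share 394 bases with the readthrough gene AC003002.3, which also shares 535 with ZNF17, and 155 with AC003002.1, which also shares 301 with ZNF547.

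ZNF540 and ZFP30 converge on the long arm, ZNF540 on the plus strand at chr19:37551406-37614179 and ZFP30 on the minus strand at chr19:37613749-37692337. Their annotated exons share 117 bases on opposite strands where the genes meet, and the strand setting of the counting is not stated, so these bases may have been counted for both. ZNF540 was scarce, at 1.18, 1.28 and 1.09 CPM in NTC, 1.17, 1.16 and 1.07 in crXCR1 and 1.83, 1.64 and 1.59 in crSUGP1. It differed from NTC by a log2 fold change of 0.51 (SE 0.12), but its adjusted p missed the limit and it was not called. From crXCR1 it differed by 0.58 (SE 0.12), at which it was called, with an adjusted p of 0.0498 (edgeR), just inside the limit. Without the expression filter that call was lost. With the experiment as a block the difference from NTC was 0.52 (SE 0.11) and was called. Per kb of exon ZNF540 was at 0.270 and ZFP30 at 3.00 CPM in NTC. ZFP30 was at 22, 26.3 and 21.2 CPM in NTC, 22.3, 21.8 and 19.6 in crXCR1 and 34.7, 32.1 and 28.4 in crSUGP1. It stood 0.46 (SE 0.10) higher against NTC on the log2 scale, which missed both the fold minimum and the limit on adjusted p. With the experiment as a block this difference was 0.46 (SE 0.06), and only the fold minimum was missed. Against crXCR1 ZFP30 stood 0.58 (SE 0.10) higher.

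Around this pair the differences were smaller. ZNF570, ZNF793 and ZNF571 had log2 fold changes of 0.05 (SE 0.14), -0.08 (SE 0.14) and 0.14 (SE 0.13) against NTC, and 0.02, -0.04 and 0.06 against crXCR1. ZNF781, a pseudogene, was at 0.0567 CPM or less in every library. Beyond ZFP30, ZNF607 was at 2.74, 3.17 and 2.76 CPM in NTC, 2.72, 3.13 and 2.73 in crXCR1 and 3.46, 3.61 and 3.54 in crSUGP1, which set the crSUGP1 libraries above all others at log2 fold changes of 0.29 (SE 0.10) and 0.31 (SE 0.10). The exons of ZNF540 also share 260 bases with ZNF571-AS1, on the same strand, and that antisense transcript stood at 5.07 ± 0.168 CPM in NTC and 6.56 ± 0.381 in crSUGP1.

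ZNF468 belongs to the dense array of the long arm between ZNF175 and ZNF331 and encodes a KRAB protein, on the minus strand at chr19:52838010-52857649. It was at 10.8, 11 and 10.7 CPM in NTC, at 10.7, 11.1 and 11.1 in crXCR1 and at 14, 15.5 and 17.3 in crSUGP1. The control libraries thus lay within 10.7 to 11.1 CPM, and each crSUGP1 library was above them. On the log2 scale it stood 0.53 (SE 0.08) above NTC and 0.51 (SE 0.08) above crXCR1.

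Here the neighbours, picked out after their values were seen, leaned the same way. Of the 6 genes from ZNF600 to ZNF816, on the minus strand at chr19:52749942-52962911, ZNF600, ZNF28, ZNF468 and ZNF888 had all crSUGP1 libraries above the controls. ZNF28 was at 9.72, 11.8 and 10.6 CPM in NTC, 10.7, 10.6 and 11.1 in crXCR1 and 12.6, 13.9 and 15.2 in crSUGP1, with log2 fold changes of 0.38 (SE 0.09) and 0.36 (SE 0.09). ZNF600 differed by 0.39 (SE 0.13) and 0.32 (SE 0.13), ZNF816 by 0.38 (SE 0.11) and 0.24 (SE 0.11) and ZNF888 by 0.26 (SE 0.08) and 0.13 (SE 0.08). Within the same stretch ZNF320 did not move with them: it was at 22.2 CPM on average in NTC and in crSUGP1 and 21.2 in crXCR1, with log2 fold changes of 0.00 (SE 0.08) and 0.06 (SE 0.08). ZNF28 and ZNF468 share 29 exon bases.

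ZNF576 was the called gene that fell. It lies on the plus strand at chr19:43596392-43601157. Unlike the other 5 it encodes a short protein of few fingers. Its level was 16.4, 15.4 and 14.4 CPM in NTC, 15.7, 15.5 and 14.1 in crXCR1 and 10.9, 10.8 and 9.27 in crSUGP1. The log2 fold change was -0.57 (SE 0.09) against NTC, 0.674 of its level, and -0.55 (SE 0.09) against crXCR1, and within experiments it was -0.59, -0.50 and -0.64 against NTC. SRRM5, which shares 227 exon bases with ZNF576 on the same strand, was at 22 ± 0.410 CPM in NTC and 23.3 ± 1.53 in crSUGP1.

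After ZNF576 the genes with a mean of at least 1 CPM that were lowest against both controls were ZNF628, ZNF671, ZFP14 and ZNF580. ZNF628 was at 17.3, 14.9 and 16.2 CPM in NTC, 15.5, 14.7 and 15.7 in crXCR1 and 14.6, 14.1 and 11.2 in crSUGP1, a difference of -0.28 (SE 0.10) and -0.20 (SE 0.10) in which crSUGP1 replicate 3 was the lowest library. Its crSUGP1 libraries lay below the controls only by a near tie, 14.6 CPM in crSUGP1 and 14.7 in crXCR1. ZFP14 had a larger difference against crXCR1, -0.32 (SE 0.19), but its groups overlapped, at 4.60 to 6.23 CPM in NTC, 4.59 to 7.09 in crXCR1 and 4.13 to 5.48 in crSUGP1. ZNF580, at 28.4 to 40.9 CPM in NTC and 29.6 to 33.1 in crSUGP1, and ZNF671, at 6.26 to 7.41 and 5.50 to 6.67 CPM, overlapped too. Within experiments 1 to 3, however, ZFP14 was lower each time. Its log2 ratios were -0.27, -0.16 and -0.18 to NTC and -0.14, -0.41 and -0.37 to crXCR1. With the experiment as a block its differences were -0.20 (SE 0.08) and -0.31 (SE 0.08). Under 1 CPM, 2 further genes, picked out after their values were seen, had negative values with wide errors: ZNF837 had -0.54 (SE 0.36) against each control at 0.587 CPM in NTC, and ZNF880 had -0.66 (SE 0.39) against crXCR1 at 0.204 CPM there.

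The promoters of the 4 genes that the rule names are printed as a description. These genes were selected for a rise in the crSUGP1 libraries, so their common rise says nothing about their promoters. Each is a RefSeq window from 250 bases before to 50 after a gene start (GRCh38.p14), read 5′ to 3′ on the strand of the gene, and where a gene has several windows the one with the most CG pairs is given. Capitals mark matches, on either strand, to the letters of a CCAAT box (CCAAT), a GC box (GGGCGG) and the NRF1 palindrome (GCGC and TGCGC with 1 base between them).
ZNF91: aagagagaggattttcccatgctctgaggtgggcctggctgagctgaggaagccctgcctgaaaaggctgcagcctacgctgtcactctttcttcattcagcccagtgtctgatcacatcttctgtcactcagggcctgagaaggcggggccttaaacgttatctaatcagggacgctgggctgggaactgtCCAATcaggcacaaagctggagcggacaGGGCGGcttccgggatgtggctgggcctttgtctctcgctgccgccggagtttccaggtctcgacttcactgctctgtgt
ZNF548: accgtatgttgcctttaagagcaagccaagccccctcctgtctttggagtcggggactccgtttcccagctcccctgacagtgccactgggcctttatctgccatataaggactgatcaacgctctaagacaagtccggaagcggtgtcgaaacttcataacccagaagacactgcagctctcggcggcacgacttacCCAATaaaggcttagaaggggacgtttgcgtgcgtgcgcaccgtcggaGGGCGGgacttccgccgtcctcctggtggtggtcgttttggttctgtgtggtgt
ZNF540: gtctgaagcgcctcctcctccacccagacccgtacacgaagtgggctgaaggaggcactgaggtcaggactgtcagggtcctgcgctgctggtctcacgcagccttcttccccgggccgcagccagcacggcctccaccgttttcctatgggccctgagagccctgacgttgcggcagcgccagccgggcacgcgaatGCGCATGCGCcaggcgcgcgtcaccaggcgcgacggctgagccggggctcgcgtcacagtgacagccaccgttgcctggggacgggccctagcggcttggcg
ZFP30: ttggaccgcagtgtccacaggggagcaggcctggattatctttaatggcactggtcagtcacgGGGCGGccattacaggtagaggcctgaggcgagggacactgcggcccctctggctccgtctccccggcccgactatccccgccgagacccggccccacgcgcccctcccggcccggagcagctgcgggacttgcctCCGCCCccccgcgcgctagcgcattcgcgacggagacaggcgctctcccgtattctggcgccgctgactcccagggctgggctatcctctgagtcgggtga
They lie at chr19:23395422-23395721 (minus strand), chr19:57389604-57389903 (plus), chr19:37551124-37551423 (plus) and chr19:37655416-37655715 (minus). ZNF91 and ZNF548 each held a CCAAT box and a GC box, ZFP30 held 2 GC boxes, and ZNF540 held 1 NRF1 palindrome and neither box. The 4 windows shown thus share no motif of the set; ZNF540 and ZFP30 each have a second window, which is not shown. Across the family, 176 genes matched the RefSeq table with 225 windows. Of these windows, 45.3% held a CCAAT box, 60.9% a GC box and 12.4% the NRF1 palindrome, against 34.6%, 45.0% and 5.78% of all 35116 windows, and 3.11% held TATAAA, against 11.5%. The median number of CG pairs was 21 against 14. A match is a run of letters and not a site of binding.

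With the called genes included, the family lay slightly higher in the crSUGP1 libraries. Over the 181 tested genes the log2 fold changes had a median of 0.11 in either comparison, and in each comparison 140 of 181, or 77.3%, were above 0, where 49.0% and 49.2% of all genes tested were and their medians were within 0.01 of 0. Without ZNF730, a choice made after seeing the data, the medians were 0.10 and 0.11, with 139 of 180 above 0 in each. Between crXCR1 and NTC the median was 0.01, with 54.7% above 0, beside 49.7% of all genes. With the experiment as a block and an adjusted p of at most 0.05 without a fold minimum, 28 genes were higher and 2 lower against NTC, where 6.72% and 8.96% of all genes were, and 34 were higher and 3 lower against crXCR1, where 9.99% and 11.7% were. As these contrasts proposed the genes, the counts are descriptions.

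The libraries did not share this equally. The median deviation of the 181 genes from their mean over the 9 libraries was -0.07, -0.03 and -0.02 on the log2 scale in NTC 1 to 3, -0.06, -0.02 and -0.01 in crXCR1 1 to 3, and 0.02, 0.03 and 0.17 in crSUGP1 1 to 3. Within experiments 1, 2 and 3 the median log2 ratio of crSUGP1 to NTC was 0.08, 0.06 and 0.19, with 69.6%, 63.0% and 80.1% of genes above 0, and that to crXCR1 was 0.07, 0.03 and 0.19, with 71.3%, 58.0% and 78.5%. Without the crSUGP1 library of experiment 3 the fitted medians were 0.05 and 0.05, and 63.9% and 66.7% of the 180 genes then tested were above 0. This library had 68712738 counts, the fewest of the 9, and the largest TMM factor but one, 1.0272. The part of depth in the result was not tested. More cells with such a transcript and more RNA per cell cannot be told apart in bulk samples.

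**Figure D2:**
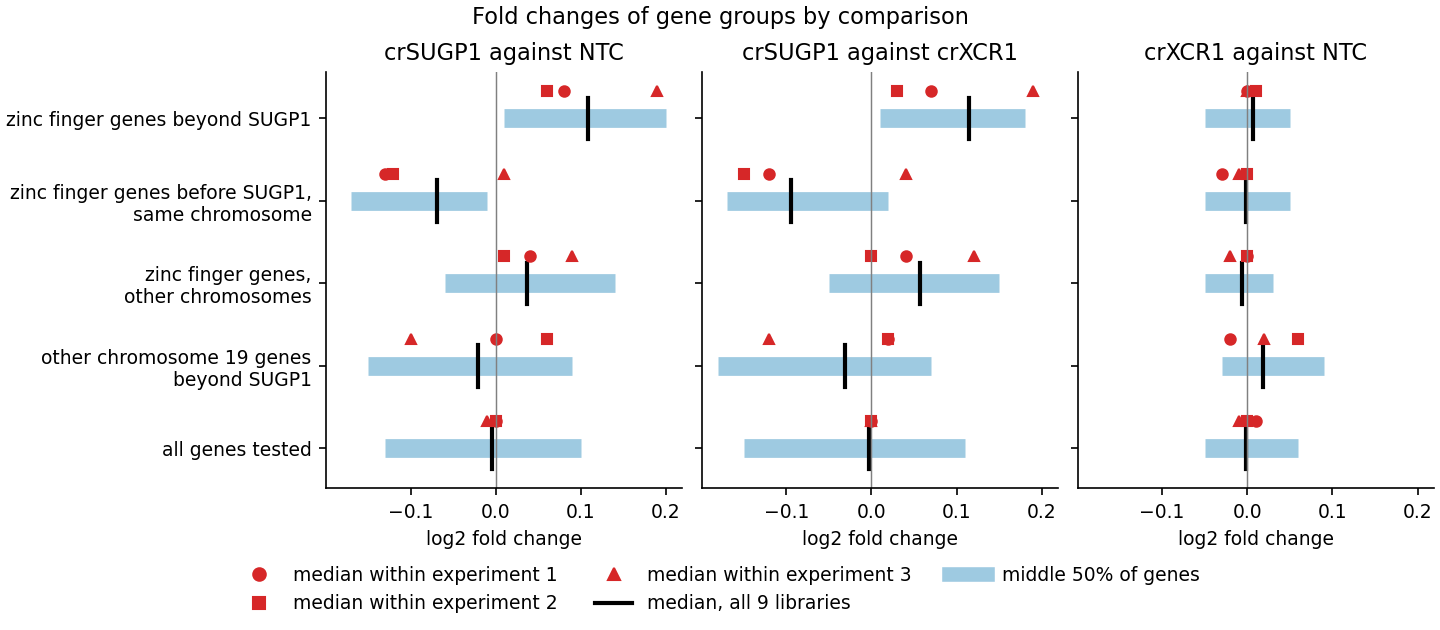
Log2 fold change (horizontal axes) of 5 groups of genes in the 3 comparisons; blue bars span the middle 50% of genes, black lines give the median from all 9 libraries, and red symbols the median of the ratios within each experiment. The zinc finger genes beyond SUGP1 lie at 0.11 in both crSUGP1 comparisons, those before SUGP1 at -0.07 and -0.10, and for the former the symbol of experiment 3 lies to the right of the other 2, at 0.19 in both.

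Zinc finger genes elsewhere had other medians, and the differences between these groups of genes were not tested. ZNF and ZFP genes of chromosome 19 that start before the limit, 48 in number and 44 tested, had medians of -0.07 and -0.10 with 11 and 12 of 44 above 0. Those of other chromosomes, 264 tested, had 0.04 and 0.06 with 62.9% and 63.6% above 0, and the other 743 tested genes beyond the limit on chromosome 19 had -0.02 and -0.03 with 44.3% and 41.9% above 0. In experiment 3 the zinc finger groups all lay higher than in experiments 1 and 2: the genes before SUGP1 had medians of -0.13, -0.12 and 0.01 against NTC in experiments 1 to 3, and those of other chromosomes 0.04, 0.01 and 0.09. The other chromosome 19 genes went the other way, with 0.00, 0.06 and -0.10. Without the crSUGP1 library of experiment 3 the genes before SUGP1 stood at -0.18 and -0.17 and the zinc finger genes of other chromosomes at -0.01 and 0.02.

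At the limit itself, the last gene outside was ZNF333, from 14689801 to 14733746, at 8.66 ± 0.340, 8.86 ± 0.671 and 10.7 ± 1.69 CPM in NTC, crXCR1 and crSUGP1 (log2 fold changes 0.30 and 0.26). The first inside was ZNF101, from 19668796 to 19683509, at 5.25 ± 0.0695, 5.19 ± 0.396 and 4.91 ± 0.258 CPM (-0.10 and -0.08). Its crSUGP1 libraries, at 4.67, 4.88 and 5.19 CPM, lay below those of NTC, at 5.21 to 5.33, and overlapped those of crXCR1, at 4.73 to 5.44.

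Along the chromosome the genes fell into 16 clusters, when a gap of more than 500000 bases began a new one, and 6 clusters of 17 or more held 190 of the 207. The medians against NTC and crXCR1 were 0.14 and 0.09 in the short-arm cluster (ZNF101 to ZNF254, 19 tested), 0.15 and 0.14 from ZNF565 to ZNF573 (28 tested), 0.10 and 0.11 from ZNF575 to ZNF180 (21 tested), 0.14 and 0.14 from ZNF175 to ZNF331 (36 tested) and 0.08 and 0.10 from ZNF264 to ZNF446 (44 tested). The cluster from ZNF628 to ZNF835, at chr19:55476617-56671783, differed in sign, with medians of -0.05 and -0.04 and 5 and 6 of 17 genes above 0. In that cluster ZNF667, picked out after its values were seen, alone had all crSUGP1 libraries above the controls, at 14, 13.6 and 14.6 CPM in crSUGP1 against 11.4 to 12.4 CPM in the 6 control libraries.

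**Figure D3:**
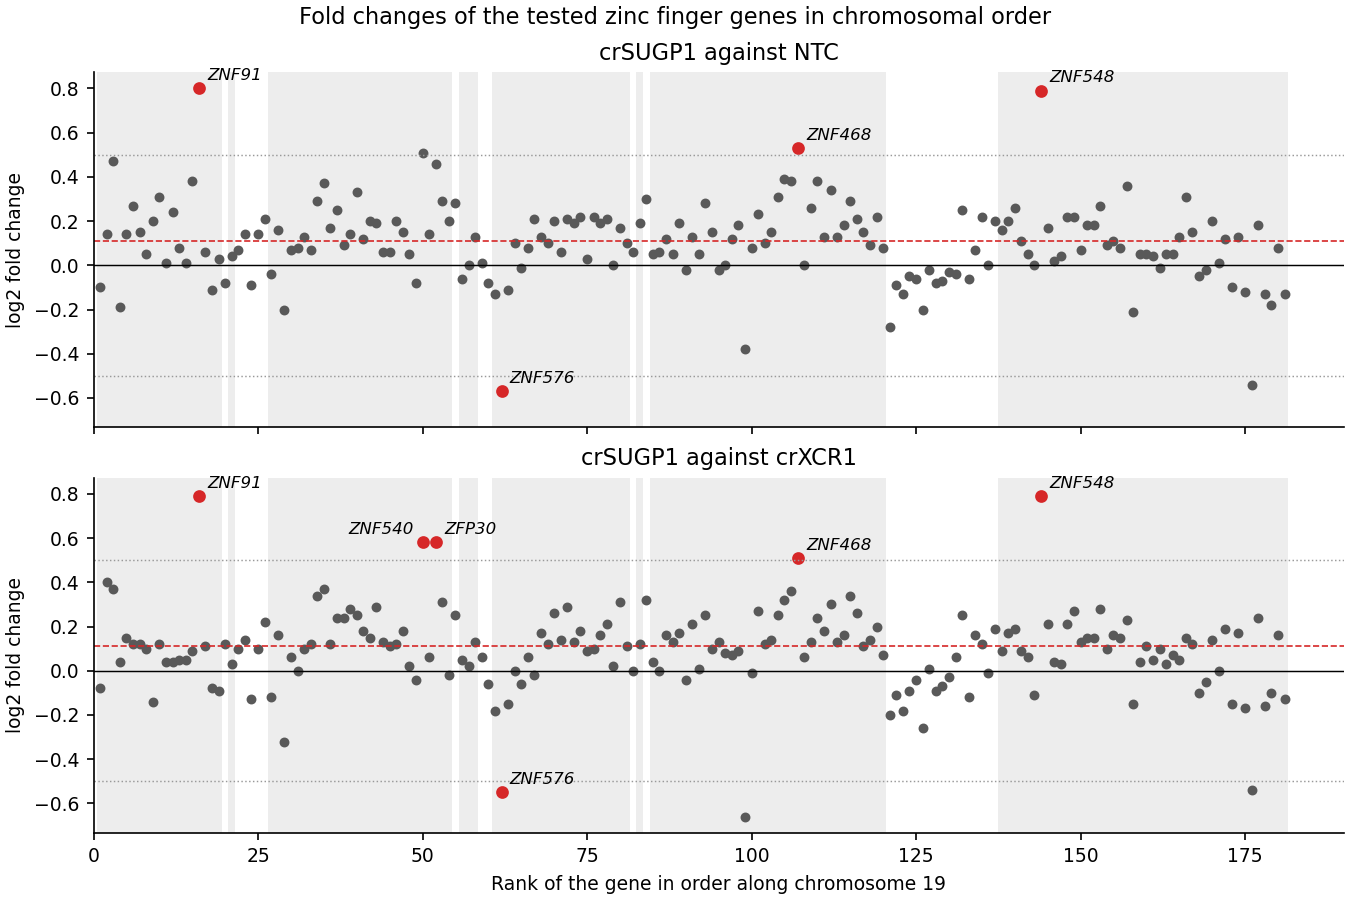
Log2 fold change (vertical axes) of the 181 tested genes in order along chromosome 19 (horizontal axis, rank), against NTC above and against crXCR1 below; grey and white bands are positional clusters, red points called genes, dashed lines the median of 0.11 and dotted lines the fold minimum of 0.5. Most points lie above 0 in each cluster of 17 or more genes except the band that runs from ZNF628 to ZNF835.

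Medians by number of fingers are given as a description, with no test. The 23 tested genes with 7 fingers or fewer had a median of -0.02 against NTC and 0.00 against crXCR1, with 11 of 23 above 0 in each. The 67 genes with 8 to 12 fingers had 0.12 and 0.13, with 56 and 58 above 0, and the 90 with 13 or more had 0.14 and 0.12, with 72 and 70 above 0. Across 180 genes Spearman's rho between fingers and fold change was 0.26 and 0.21, and 0.07 for crXCR1 against NTC; genes that duplicated from each other are not independent, and no p is given. Genes with the KRAB pattern had medians of 0.12 and 0.12, with 82.4% above 0 in each, and the 78 without it 0.08 and 0.10, with 70.5%. By level, the medians against NTC were 0.20 for the 11 genes under 1 CPM, of which 6 were above 0, 0.15 at 1 to under 5 CPM, 0.12 at 5 to under 10, 0.09 at 10 to under 20 and 0.03 at 20 CPM or more. Against crXCR1 they were 0.09, 0.12, 0.12, 0.12 and 0.05.

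**Figure D4:**
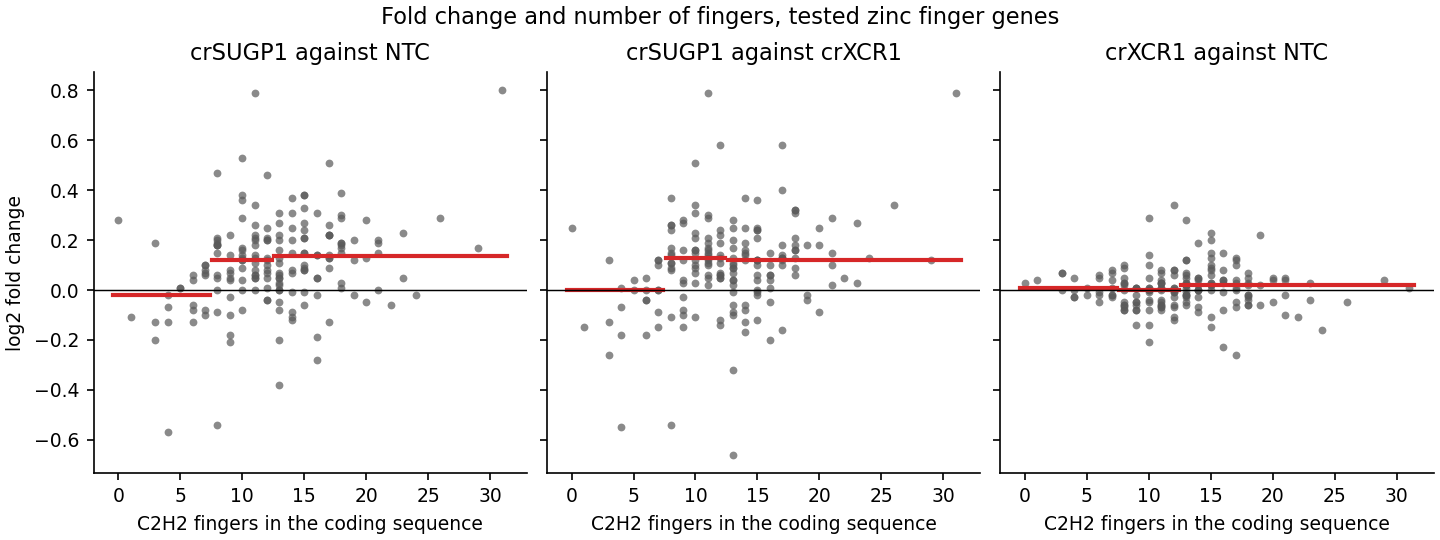
Log2 fold change (vertical axis) of the tested genes against the number of finger matches in the coding sequence (horizontal axes) in the 3 comparisons; each point is a gene and red lines are medians of genes with 0 to 7, 8 to 12 and 13 or more fingers. The left-hand line lies at -0.02 against NTC and the other lines at 0.12 and 0.14, while in crXCR1 against NTC the lines lie within 0.02 of 0.

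Some members have roles outside the repression of repeats. ZNF473, a component of the machinery that cuts histone pre-mRNA, was at 25.7, 28.3 and 24.6 CPM in NTC, 26.6, 26 and 24.6 in crXCR1 and 32.7, 31.4 and 32.4 in crSUGP1, with log2 fold changes of 0.30 (SE 0.07) and 0.32 (SE 0.07). ZFP36, whose protein promotes decay of AU-rich mRNAs, was at 6.64 to 7.86 CPM in the 6 control libraries and at 9.07, 9.00 and 8.26 in crSUGP1. Both were picked out after their values were seen. ZNF274, a KRAB protein known to bring SETDB1 to the 3′ ends of zinc finger genes, was at 26.9 to 28.0 CPM in NTC, 26.5 to 29.5 in crXCR1 and 27.1 to 28.8 in crSUGP1, and these ranges overlapped.

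The partners of the KRAB domain and the proteins of H3K9 heterochromatin were expressed and none was called. All 31 genes of the list were tested, at means of 4.78 to 843 CPM, with 0 called in any comparison by edgeR's quasi-likelihood test or DESeq2. At an unadjusted p under 0.05 in edgeR there were 3 against NTC and 5 against crXCR1, where 13.2% and 16.1% of all genes were, and 0 between the controls. In NTC, crXCR1 and crSUGP1, TRIM28 was at 512 ± 50.5, 511 ± 46 and 515 ± 79.4 CPM and SETDB1 at 34.1 ± 0.751, 32.9 ± 0.130 and 33.5 ± 2.44 CPM. Their log2 fold changes against NTC were 0.01 (adjusted p = 0.988, edgeR) and -0.03 (adjusted p = 0.920, edgeR). With the experiment as a block and no fold minimum, 4 of 31 passed against NTC and 7 against crXCR1, where 15.7% and 21.7% of all genes did, so that the list did not stand out from them. They went both ways, and are named after their values were seen. Against NTC TASOR2 and MORC3 were higher, by 0.21 and 0.22 on the log2 scale, and UHRF1 and DNMT1, which maintain DNA methylation, were lower. Against crXCR1 TASOR2, RESF1 and DAXX were higher and UHRF1, DNMT1, ATF7IP and TRIM24 lower. In NTC, crXCR1 and crSUGP1 UHRF1 was at 154 ± 5.44, 150 ± 7.56 and 124 ± 12.8 CPM, a difference of -0.31 (SE 0.08) against NTC. DNMT1 was at 266 ± 19.5, 260 ± 15.6 and 225 ± 21.2 CPM, a difference of -0.24 (SE 0.09). Both were picked because they passed with the block, so that passing supports nothing. Without the block their adjusted p against NTC was 0.122 and 0.255 (edgeR).

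Cutting XCR1 left the zinc finger genes close to NTC. This contrast was not used to choose them. None of 181 was called by edgeR's quasi-likelihood test, beside 0.00% of all genes, and 1 had an unadjusted p under 0.05, beside 1.34% of all genes; DESeq2 called 0 as well, with 0 at an unadjusted p under 0.05. The gene under 0.05 was ZNF221, at 3.43, 3.54 and 3.22 CPM in NTC and 4.24, 4.09 and 3.6 in crXCR1, which did not overlap, with a log2 fold change of 0.23 (SE 0.09, adjusted p = 1.00, edgeR). Of genes with a mean of at least 1 CPM, ZNF14 and ZNF573 also had large differences, -0.26 (SE 0.22) and 0.22 (SE 0.11), both at an adjusted p of 1.00 in edgeR. The 6 genes called for crSUGP1 differed here by -0.12 to 0.01.

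More of these genes differed between experiments than between the control guides. In the fit with guide and experiment as terms, 52 of 181 genes differed between experiments at an adjusted p of at most 0.05 (edgeR F test), or 28.7%, against 40.8% of all genes tested. Experiment 3 was the extreme in each of the 52, highest in 38 and lowest in 14. ZNF582, often found methylated in tumors, was at 6.14, 6.15 and 4.08 CPM in NTC of experiments 1 to 3, 5.97, 6.05 and 4.01 in crSUGP1 and 6.15, 6.45 and 3.88 in crXCR1 (adjusted p = 8.29e-06, edgeR). ZNF114 peaked in experiment 2, at 9.53, 12.9 and 8.54 CPM in NTC (adjusted p = 1.15e-05, edgeR), and ZNF296, whose protein works with KLF4 in pluripotent cells, ran from 6.60 and 5.49 to 4.0 CPM in NTC (adjusted p = 1.17e-05, edgeR). Their log2 fold changes for crSUGP1 against NTC were -0.03, 0.19 and 0.06. ZNF582 shares 1174 exon bases with the noncoding gene AC006116.9 on the other strand. Of the 6 called genes, ZFP30 and ZNF576 also differed between experiments (adjusted p = 0.0280 and 0.0325, edgeR).

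**Figure D5:**
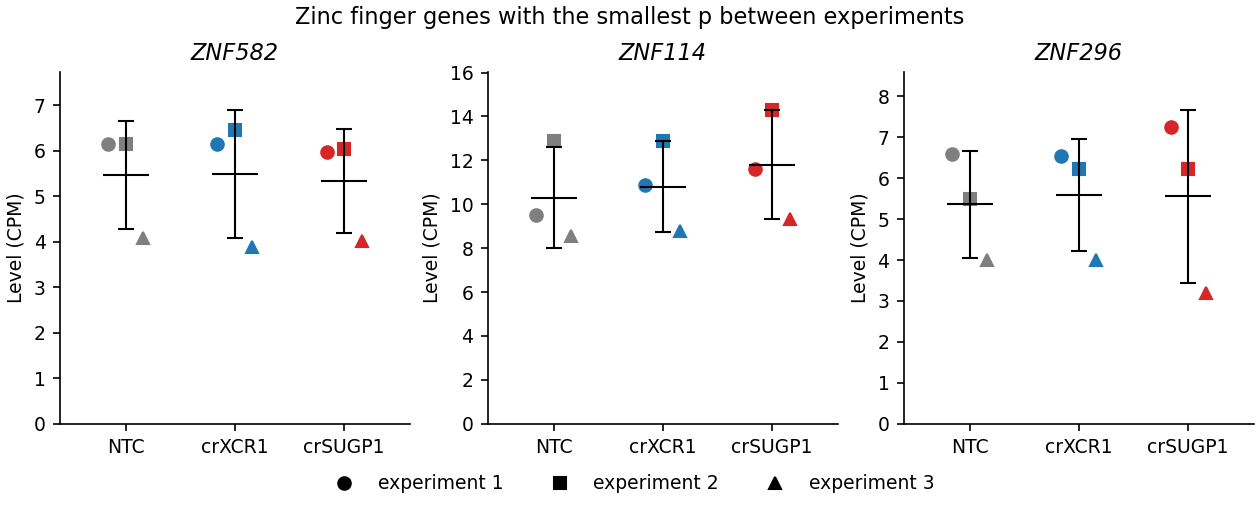
Level in CPM (vertical axes, from 0) of the 3 genes with the smallest p between experiments, by guide; symbols mark the experiments, and black bars give the mean and SD of 3 libraries. Libraries of experiment 3 are the lowest for each guide in all 3 genes, while the guides overlap.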

How the data were processed

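Polyadenylated RNA of 9 U-2 OS libraries was sequenced in pairs. Per the labels and the study's methods, the authors trimmed reads (Trim Galore 0.6.7, cutadapt 2.4), aligned them to GRCh38 (STAR 2.7.9a) and deposited raw counts of read pairs over exons for each gene, without normalization; the strand setting is not given in the sources used here. The table listed 38179 entries; 31 repeated names with 0 counts and 2 identical repeats were dropped, which left 38146. No column belonged to another sample (0). Depth was 68712738 to 107952835 counts per library.

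Counts were fitted with edgeR 4.0.16 (R 4.3.3; TMM, quasi-likelihood F test, all 9 libraries, 6 residual degrees of freedom) over the 21071 genes that exceeded -2 on the log2 CPM scale in 1 or more libraries. P-values were adjusted over all of them by the Benjamini-Hochberg method. DESeq2 1.42.0, other scalings and filters, 6-library fits and fits without each library or experiment were the alternatives, and the scripts were tested on simulated data. Libraries of the same experiment deviated together: over 16792 genes the 9 same-numbered pairs of different groups correlated at 0.498 to 0.902, against -0.854 to 0.660 for 18 other pairs, and the experiment was therefore also entered as a block (4 residual degrees of freedom), with values given beside calls it changed.

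Fingers and the KRAB pattern were counted in translated GENCODE release 44 coding sequences, promoters were RefSeq windows (GRCh38.p14), and 110 of the 207 genes share exon bases with another gene. The members and lists were chosen with earlier results of these data known. Named were the genes in the rule, genes called, the 2 neighbours on either side of the former, the 5 highest and 3 lowest per kb, the 5 largest rises and falls against both controls at 1 CPM or more, the 3 largest differences of crXCR1, the 3 smallest p between experiments, the genes at the limit and TRIM28, SETDB1 and ZNF274.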

Additional observations from a re-analysis of the deposited data

How the results depend on the processing

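None of the 6 called genes changed direction under the alternatives run. Their crSUGP1 libraries do not overlap the controls, so leaving out libraries could not have reversed them, and nothing is read from this. The counts of calls moved. With only the 6 libraries of the groups compared, 1 gene was called against NTC and 1 against crXCR1, ZNF548 in both, in place of 4 and 6. Leaving out 1 library or 1 experiment gave 0 to 4 calls against NTC, 0 to 5 against crXCR1 and 0 to 3 against both controls; the 0 came from leaving out experiment 1 or experiment 2, which leaves 6 libraries, and without experiment 3 the counts were 3, 5 and 3. Without NTC replicate 1 or NTC replicate 2 ZNF548 alone was called against NTC, and without crSUGP1 replicate 2, crXCR1 replicate 1 or crXCR1 replicate 2 it alone was called against crXCR1. Counts of 2 were left against NTC without crSUGP1 replicate 2 or 3 or crXCR1 replicate 2, and against crXCR1 without NTC replicate 1, crSUGP1 replicate 1 or 3 or crXCR1 replicate 3. The cause was not tested. Of 18 alternatives, ZNF548 was called against each control in 16, ZNF91 in 10 and 7, ZNF576 in 12 and 10, ZNF468 in 8 and 8, ZFP30 in 0 and 9 and ZNF540 in 1 and 5.

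The median over the genes, 0.11 in both comparisons, was 0.05 and 0.05 without crSUGP1 replicate 3 and 0.06 against crXCR1 without experiment 3; over all such fits it ranged from 0.05 to 0.15 against NTC, 0.05 to 0.14 against crXCR1 and -0.01 to 0.02 between the controls. With the replicate block 5 genes were called against NTC, 6 against crXCR1 and 5 against both, with ZNF540 added against NTC, and the block changed no other call; the medians were 0.10 and 0.11. The count between experiments was 35 to 57 over the alternatives and 40 with DESeq2. Genes under 1 CPM rest on few reads: a difference of 0.11 is well within the SE of ZNF837 (0.36) or ZNF880 (0.41) against NTC.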

Other observations

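Names that the rule leaves out, 12 antisense transcripts and ZNF816-ZNF321P, lie among the same genes. Of these 13, 12 were tested and 0 were called by edgeR, with the experiment as a block or without it. Their median log2 fold change was 0.17 against NTC, 0.18 against crXCR1 and 0.02 between the controls, and 10 of 12 were above 0 in each crSUGP1 comparison. ZNF571-AS1 was at 5.07, 5.01 and 6.56 CPM in NTC, crXCR1 and crSUGP1, a log2 fold change of 0.37 (SE 0.08) against NTC. ZNF667-AS1 was at 16.8, 16.6 and 16.5 CPM, with a log2 fold change of -0.03 (SE 0.07), while ZNF667 itself was at 11.9 ± 0.545, 11.8 ± 0.409 and 14.1 ± 0.492 CPM (SD, n = 3). These names overlap genes of the family in places, so the values are not independent of them.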
